A study of Homo sapiens with 2 samples.

Results

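MicroRNA precursor genes were described in LP-1 cells, which are a long-established line from human multiple myeloma, on 2 whole-transcript Affymetrix arrays. The members are the genes whose symbol in the array annotation is that of a microRNA or let-7 gene, host transcripts left out, on probe sets with that 1 symbol. Of 18377 genes with such a probe set, 173 are microRNA genes, each with 1 probe set. The mean of its 2 log2 signals reached 4.01, the median over all 28869 probe sets, for 36 of the 173, or 20.8%, against 59.5% of all genes. On 1 array, the vector control, were cells with pRUF-IRES-GFP and no insert, and on the other, the HIF2A array, cells with the same vector and HIF-2α cDNA for stable overexpression after infection. EPAS1 encodes HIF-2α, a transcription factor subunit that oxygen normally keeps low. The sources used here do not say whether each line was a pool or a clone, or which promoter drove the insert. Each group has 1 array, so no difference below has a replicate check, a p-value or an SE, and "higher" and "lower" compare these 2 arrays.

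The EPAS1 signal was 3.70 in the vector control and 9.05 in the HIF2A array, as the labels say. All 9 plasma cell markers measured, among them SDC1, CD38, XBP1 and IRF4, lay between 6.46 and 12.59 in the vector control and between 6.16 and 12.55 in the HIF2A array. The 3 B cell markers measured reached at most 3.96 and 3.89, and the 4 T and NK cell markers at most 3.87 and 3.63. Of the plasma cell markers TNFRSF17 differed most, with 8.71 in the vector control and 7.68 in the HIF2A array. At or above the filter in both arrays were 1 of 4 myeloid markers, CD14 at 4.29 and 4.44, 1 of 4 stromal markers, COL1A1 at 4.72 and 4.59, and 2 of 3 endothelial markers, CDH5 at 4.01 and 4.11 and PECAM1 at 4.36 and 5.28. The 1 erythroid marker measured, HBB, had 3.28 and 3.09. The part of these markers in the results on microRNA genes was not tested. The 95th percentile of 359 olfactory receptor genes, used as a measure of background, was 3.59 in the vector control and 3.58 in the HIF2A array.

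MicroRNAs are short RNAs that silence messenger RNAs. Most are transcribed by RNA polymerase II as long primary transcripts, on their own, in clusters or inside the introns of host genes. The nuclease DROSHA with DGCR8 cuts out a hairpin in the nucleus, XPO5 exports it, DICER1 trims it to the mature form, and an Argonaute protein carries 1 strand to its targets. Target choice rests mostly on the seed, bases 2 to 8 of the mature strand. In hypoxia miR-210 is the microRNA best known as a HIF target, and in myeloma the miR-17/92, miR-106b/25, miR-21 and miR-15/16 families have been studied most. The labelling assay copies longer RNA, so a probe set over a hairpin is taken here to read mainly the primary transcript, and mature microRNA levels were not measured. Whether the RNA preparation kept the precursor hairpins, of 63 to 119 bases, was not tested.

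The mature strands of the members on which the results turn are shown with the seed in capitals, from RefSeq's annotation of GRCh38.p14. The first 4 are of the 2 genes that were lowest in the HIF2A array relative to the vector control, MIR504 and MIRLET7D, and of the 2 let-7 genes next to MIRLET7D, whose strands have the same seed.
hsa-miR-504-5p: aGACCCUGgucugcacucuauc
hsa-let-7d-5p: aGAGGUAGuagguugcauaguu
hsa-let-7a-5p: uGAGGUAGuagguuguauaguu
hsa-let-7f-5p: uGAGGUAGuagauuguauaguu
The next 3 belong to MIR339, the gene with the largest positive difference past the filter, to MIR326, the gene with the highest signal, and to MIR210.
hsa-miR-339-5p: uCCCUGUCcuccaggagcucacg
hsa-miR-326: cCUCUGGGcccuuccuccag
hsa-miR-210-3p: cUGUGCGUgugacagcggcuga
The last 7 are of the families discussed by shared seed.
hsa-miR-132-3p: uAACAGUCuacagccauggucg
hsa-miR-212-3p: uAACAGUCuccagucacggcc
hsa-miR-200b-3p: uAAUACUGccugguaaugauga
hsa-miR-200c-3p: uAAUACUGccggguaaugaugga
hsa-miR-429: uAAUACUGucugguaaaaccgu
hsa-miR-204-5p: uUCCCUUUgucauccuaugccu
hsa-miR-211-5p: uUCCCUUUgucauccuucgccu

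Most microRNA genes gave signals in the background range. Of the 173, 109 lay below the olfactory receptor 95th percentile in both arrays, 53 lay at or above it in both, and 11 in 1 array only. The median signal over members was 3.12 in the vector control and 3.16 in the HIF2A array, against 2.93 and 2.84 for olfactory receptor genes. Past the filter 24 members had a mean signal between 4 and 5 and 12 had 5 or more. MIR326, with 7.52 in the vector control and 7.14 in the HIF2A array, had the highest mean, at the 92.5th percentile of all probe sets. MIR339 and MIR197 were the only others above 6. Also among the 15 highest, MIR139 had 5.91 in the vector control and 5.69 in the HIF2A array, and MIR193A had 5.75 and 5.80. MIR149 had 5.16 and 5.20, MIR134 had 5.33 and 4.96, and MIR187 had 4.75 and 4.94. None of these 5 differed 1.5-fold. Just inside the filter were MIR128-2, MIR23A and MIR191, with means of 4.14, 4.14 and 4.05. MIR125B1 shared the first of these means, and just outside were MIR30C1, MIR323B and MIR125A, with means of 4.0, 3.98 and 3.97.

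**Figure D1:**
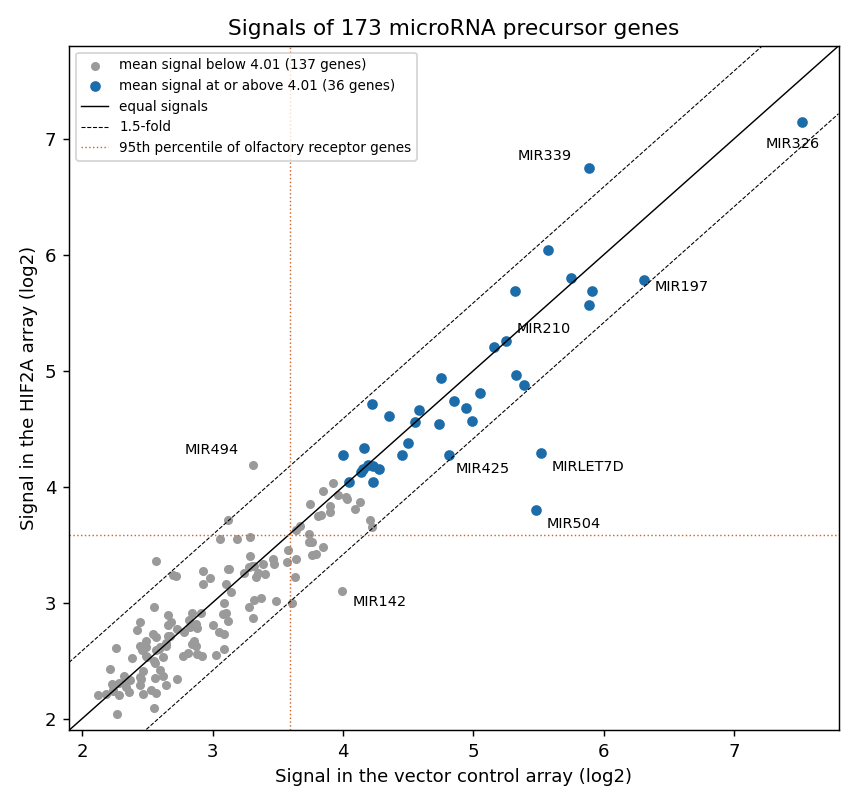
Signals (log2) of the 173 microRNA precursor genes, vector control array on the x axis and HIF2A array on the y axis, 1 point a gene, with lines for equal signals, for 1.5-fold and for the olfactory receptor 95th percentile in each array. Most points crowd below 3.59 and 3.58, and MIR504, MIRLET7D and MIR339 are the genes past the filter that lie outside the 1.5-fold lines.

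Signal among the members followed the base composition of the hairpin. RefSeq gave a hairpin for 155 of the 173 members, with a median of 49.1% G and C. Across these 155 genes Pearson's r between the percentage of G and C and the mean signal was 0.775 and Spearman's rho was 0.795, as a description of probe sets on the same 2 arrays. Of the 39 hairpins lowest in G and C, up to 42.2%, 0 genes passed the filter and the median signal was 2.45. Of the 39 highest in G and C, from 57.0% to 73.6%, 27 passed and the median was 4.46. Hairpin length ran from 63 to 119 bases, with a Spearman's rho of 0.178 to the mean signal.

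The hairpins of the members with the highest and the lowest mean signal show this contrast, with the mature strands in capitals and the rest in lower case. MIR326 lies on the minus strand of chr11:75335092-75335186 in GRCh38.p14 and its hairpin has 64.2% G and C. MIR95 had signals of 2.27 in the vector control and 2.04 in the HIF2A array, lies on the minus strand of chr4:8005301-8005381, and its hairpin has 40.7% G and C.
MIR326: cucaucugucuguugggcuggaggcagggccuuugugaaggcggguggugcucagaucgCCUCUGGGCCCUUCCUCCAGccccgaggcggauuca
MIR95: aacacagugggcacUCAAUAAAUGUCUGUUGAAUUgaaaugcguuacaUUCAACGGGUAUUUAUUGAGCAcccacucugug
The same relation held among genes of 1 cluster, which are usually cut from 1 primary transcript. In 18 of 26 clusters with at least 2 known hairpins the member with the highest signal had the highest percentage of G and C. Of all 30 clusters formed, 21 have only 2 genes, where such a match is as likely as not without any relation. Pearson's r between the deviations of signal and percentage from their cluster mean was 0.676 over 65 genes. Signals of different microRNA probe sets are therefore not read here as an order of RNA amounts, and the comparison between arrays is made gene by gene. The part of probe composition in the signal was not tested.

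**Figure D2:**
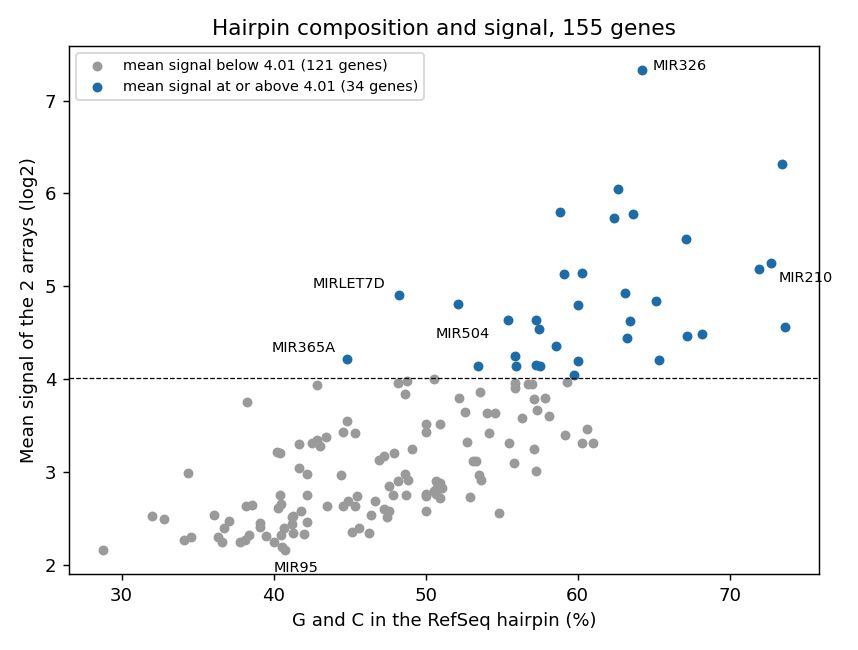
Mean signal of the 2 arrays (log2) against the percentage of G and C in the RefSeq hairpin for 155 microRNA genes, 1 point a gene, with the filter as a dashed line. Signals climb with G and C content, and MIRLET7D and MIR365A pass the filter with less than 50% G and C.

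Past the filter, 3 of the 36 genes differed at least 1.5-fold between the arrays. MIR339 was higher in the HIF2A array, which is 2.78% of the members past the filter, where 5.60% of the 10936 genes past it were at least 1.5-fold higher. MIR504 and MIRLET7D were lower, which is 5.56%, where 4.50% of all genes were at least 1.5-fold lower. MIR504 passed the filter only through its vector control signal, so its place in this count depends on its difference. At 2-fold there were 0 higher and 2 lower members, against 0.686% and 0.732% of all genes. Shares of 1 and 2 genes in 36 are near this background at 1.5-fold, and 2 genes are too few to set against it at 2-fold.

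The microRNA of MIR504, which lies in an intron of FGF13, is known for targeting p53 messenger RNA. MIR504 had the largest difference. Its signal was 5.48 in the vector control and 3.80 in the HIF2A array, a fall of 3.20-fold. The HIF2A value lies above the olfactory receptor 95th percentile but below the filter of 4.01. MIRLET7D encodes let-7d, of the let-7 family that is known for restraining MYC, RAS and HMGA2. Its signal was 5.52 in the vector control and 4.29 in the HIF2A array, 2.35-fold lower. MIR339 had 5.89 in the vector control and 6.75 in the HIF2A array, 1.82-fold higher. The 20 nearest genes past the filter, microRNA genes left out, had median differences of -0.04 at MIR504, 0.13 at MIRLET7D and -0.08 at MIR339. The neighbours as a set thus did not share these differences. With 32 added to each linear value, which shrinks differences at low signals, the log2 differences of MIR504 and MIRLET7D came to -0.74 and -0.60 and neither was 2-fold.

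The other 33 members past the filter lay within 1.5-fold. Over all 36 the differences, taken as HIF2A minus vector control, had a median of -0.08 on the log2 scale, with 13 higher, 21 lower and 2 equal, where the median over every gene past it was 0.03. Their robust SD, the scaled median absolute deviation, was 0.25, against 0.34 for all genes past the filter. The 137 members below the filter had a median of -0.06 and a robust SD of 0.24. The 359 olfactory receptor genes had the same values, a median of -0.06 and a robust SD of 0.24. The differences of microRNA genes below the filter thus had the same centre and spread as those of background probe sets.

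**Figure D3:**
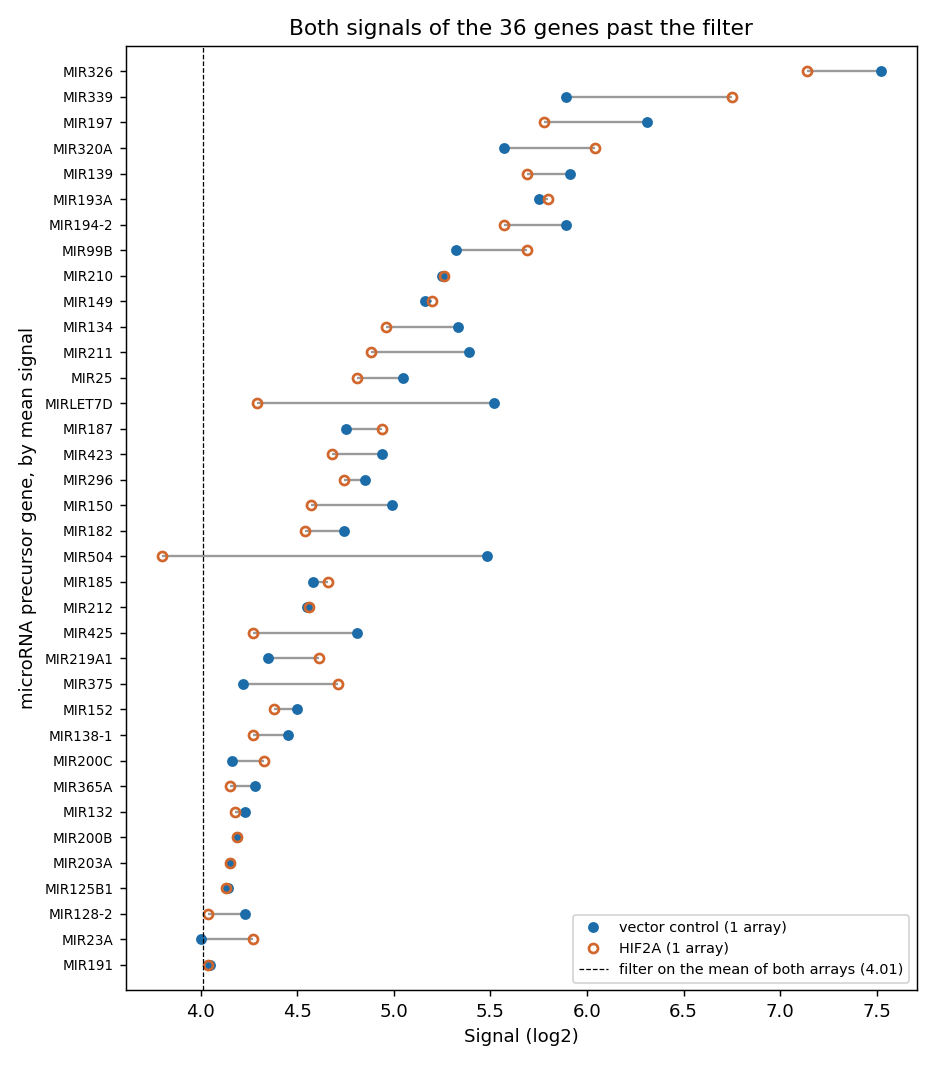
Signals (log2) of the 36 microRNA genes past the filter, ordered by mean signal, with a filled point for the vector control array and an open point for the HIF2A array joined by a line. MIR504 and MIRLET7D have the longest lines, to the left in the HIF2A array, and MIR339 the longest to the right.

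Next in size among members past the filter were 5 genes with differences of about 0.5. MIR425 had 4.81 in the vector control and 4.27 in the HIF2A array. MIR197 had 6.31 and 5.78, and MIR211 had 5.39 and 4.88, so these 3 were lower by -0.54, -0.53 and -0.51 on the log2 scale. In the other direction MIR375, known from pancreatic islets, had 4.22 and 4.71, and MIR320A had 5.57 and 6.04. None of the 5 reached 1.5-fold on the deposited values. Across the 34 genes past the filter with a hairpin, r between the percentage of G and C and the difference was 0.509, and 0.317 over the 31 of them within 1.5-fold. Over all 155 members with a hairpin this r was -0.028, and over the 121 below the filter it was -0.151. The part of base composition in the differences was not tested. After subtracting the median of 20 neighbours, MIR425 came to -0.80 and MIR326 to -0.63, which brought the members at least 1.5-fold lower to 4.

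Below the filter 3 of 137 members were higher by 1.5-fold or more, where 1.20% of all genes below it were, and 2 were lower by as much, where 1.72% were. At 2-fold there were 0 members in either direction, where 0.0806% of genes below the filter were higher and 0.0941% lower. MIR494, of the imprinted cluster on chromosome 14, had 3.31 in the vector control, within background, and 4.19 in the HIF2A array, which is at least 1.52-fold higher against the olfactory receptor 95th percentile. MIR92A2 had 3.12 and 3.71, at least 1.09-fold higher by the same bound. MIR142, a microRNA gene of blood cells, had 3.99 in the vector control and 3.10 in the HIF2A array, within background there, and was at least 1.33-fold lower. MIR106B had 3.61 and 3.0 and was at least 1.02-fold lower. MIR9-3 had 2.57 and 3.36, both within background, so no fold is given.

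Among microRNA genes known for induction in hypoxia or by HIF, MIR210 did not differ between the arrays. Its signal was 5.25 in the vector control and 5.26 in the HIF2A array, which differ by 0.01 beside a 40.8-fold difference in EPAS1. The EPAS1 signal of the vector control, 3.70, was close to the background limit of 3.59, and these arrays do not measure HIF-2α protein. Of the 27 listed symbols 21 matched a measured gene and 3 passed the filter, MIR210, MIR23A and MIR191. Their differences were 0.01, 0.27 and -0.01, and none reached 1.5-fold. MIR21 had 2.72 and 3.23, both within background. The hairpin of MIR210 lies in the transcript MIR210HG, for which no single-symbol probe set was found, so MIR210 was the only reading of that locus. Its probe set is among the richest in G and C, at 72.7% of the hairpin, and how far its signal follows the primary transcript was not tested.

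The promoter of MIR210HG is shown because its transcript carries the MIR210 hairpin. The window runs from 250 bases before to 50 after the start of the RefSeq gene, on the minus strand of chr11:568408-568707 in GRCh38.p14. The core HIF motif was searched as ACGTG and GCGTG on both strands, and the matches are in capitals.
MIR210HG: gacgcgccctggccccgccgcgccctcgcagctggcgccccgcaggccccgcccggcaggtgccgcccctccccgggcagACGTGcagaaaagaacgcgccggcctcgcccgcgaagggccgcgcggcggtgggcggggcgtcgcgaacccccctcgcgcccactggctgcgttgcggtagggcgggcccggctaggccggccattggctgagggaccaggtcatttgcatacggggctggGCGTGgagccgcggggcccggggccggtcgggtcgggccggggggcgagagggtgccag
There are 2 matches, ACGTG and GCGTG, both on the strand shown. At least 1 match stands in 48.4% of 27305 RefSeq promoters of this length and at least 2 in 23.3%, so such matches are common, and a match is no evidence of binding.

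Of 44 microRNA genes studied in myeloma and plasma cells, 27 were measured and 4 passed the filter. MIR197 had the difference of -0.53 given above, MIR194-2 had 5.89 in the vector control and 5.57 in the HIF2A array, MIR25 had 5.05 and 4.81, and MIR125B1 had 4.14 and 4.13. All 4 were lower, where 21 of the 36 members past the filter were lower, and none reached 1.5-fold. MIR17, MIR18A, MIR19A, MIR20A, MIR92A1 and MIR155 had no single-symbol probe set. These loci were read only with their host transcripts, by MIR17HG and by a probe set of MIR155 and MIR155HG. Both were higher in the HIF2A array and are given under Other observations. The 6 measured members of the miR-15/16 family, with mean signals from 2.39 to 3.59, all failed the filter. Of 10 genes of B cell and other blood lineages 8 were measured, and MIR150, a microRNA gene of mature lymphocytes, passed with 4.99 in the vector control and 4.57 in the HIF2A array. MIR223, known from myeloid cells, had 2.91 in both arrays. Of 13 listed mirtrons, whose hairpins are made by splicing, none had a single-symbol probe set.

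Of 32 microRNA genes known from muscle, liver, neurons, epithelium and other tissues, 17 were measured and 2 passed the filter, MIR375 and MIR203A. MIR203A, of skin, had 4.15 in both arrays. The muscle gene MIR1-1 had 2.24 and 2.25 and the liver gene MIR122 had 2.54 and 2.73, within background.

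Genes of 1 cluster are usually read from 1 primary transcript, so their differences are set side by side here. Members within 10 kb of the next, on the same strand where it is given, form 30 clusters with 77 genes, and 11 clusters hold a gene past the filter. MIRLET7D stands in 1 cluster with MIRLET7A1 and MIRLET7F1. MIRLET7A1 had 3.35 in the vector control and 3.26 in the HIF2A array, and MIRLET7F1 had 3.13 and 3.29, all within background. At such signals a difference like that of MIRLET7D, -1.23, could not show, so these genes give no check of it.

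In 2 clusters, with 4 genes, at least 2 members passed the filter, MIR132 with MIR212 and MIR425 with MIR191, and most of the 77 genes lay below it, so whether genes of 1 cluster differ alike could not be read from these arrays. In the miR-106b/25 cluster in an intron of MCM7, MIR25 differed by -0.24, MIR93 by -0.01 and MIR106B by -0.61. MIR93 had 3.67 in the vector control and 3.66 in the HIF2A array, near the background limit. MIR425 and MIR191, neighbours in DALRD3, differed by -0.54 and -0.01. In the cluster with MIR99B, that gene had 5.32 and 5.69, while MIRLET7E had 4.09 and 3.81 and MIR125A had 4.02 and 3.91.

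**Figure D4:**
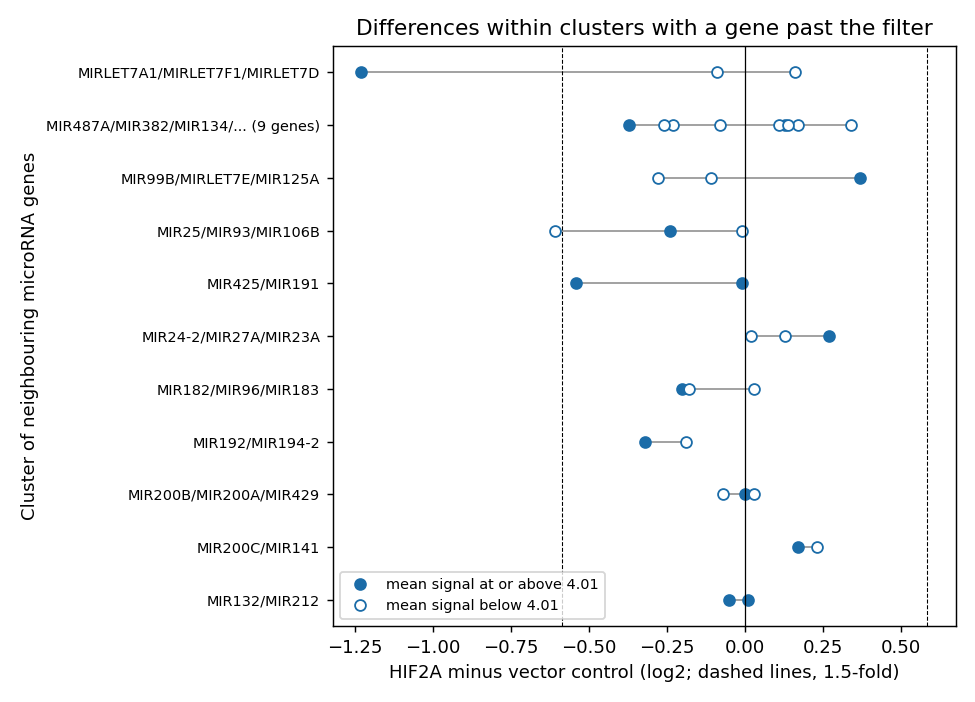
Differences, HIF2A minus vector control (log2), of the microRNA genes in the 11 clusters with at least 1 gene past the filter, filled points for genes past it and open points for the rest, with dashed lines at 1.5-fold. MIRLET7D lies at -1.23, MIRLET7A1 and MIRLET7F1, both within background, at -0.09 and 0.16, and MIR132 and MIR212 at -0.05 and 0.01.

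Grouped by seed, 2 families had at least 2 genes past the filter. MIR132 and MIR212, of 1 cluster and known from CREB signalling, share the seed AACAGUC. MIR132 had 4.23 in the vector control and 4.18 in the HIF2A array and MIR212 had 4.55 and 4.56. MIR200B, MIR200C and MIR429, known for holding ZEB factors down in epithelium, share AAUACUG. MIR200B had 4.19 in both arrays, MIR200C had 4.16 and 4.33, and MIR429 had 3.83 and 3.76. No gene of these families was near 1.5-fold.

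The let-7 seed GAGGUAG occurs in 10 members, of which 4 were higher and 6 lower, with differences from -1.23 to 0.16. Above background in both arrays were MIRLET7D, MIRLET7E, MIRLET7I and MIR98. All 4 were lower, where 21 of the 36 members past the filter and 101 of all 173 members were lower. MIRLET7E differed by -0.28 and MIRLET7I by -0.07. MIR98 was the second lowest of the 4, with 4.22 in the vector control and 3.65 in the HIF2A array, which differ by -0.57, short of 1.5-fold. MIR211 and MIR204 share the seed UCCCUUU and lie in the channel genes TRPM1 and TRPM3. MIR211 was lower by -0.51 and MIR204, just below the filter, by -0.50, with 4.21 and 3.71. The seed AUUGCAC of MIR25 also occurs in MIR92A2, within background in the vector control, and in MIR32, within background in both arrays, so no common direction could be read.

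In 18 sets of genes that encode 1 mature sequence, mean signals within a set differed by a median of 0.56 on the log2 scale. The widest range, 3.29, was that of miR-194. MIR194-2 had 5.89 in the vector control and 5.57 in the HIF2A array, and MIR194-1, which encodes the same miR-194 strand, had 2.47 and 2.41, within background. MIR103A1 and MIR103A2, MIR218-1 and MIR218-2, and MIR16-1 and MIR16-2 were within background in both arrays, so their differences are not given.

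Host genes were compared because an intronic hairpin is usually made from its host's transcript. Of the 173 members, 112 lie inside another RefSeq gene on the same strand, and for 63 of these that gene had a single-symbol probe set. In 45 pairs, with 38 hosts, the host passed the filter. The sign of both differences was the same in 22 pairs and opposite in 22, and Pearson's r between them was -0.05 across pairs, some of which share a host. In all but 10 of these pairs the microRNA gene was below the filter, where a change shared with the host might not show. In the 10 pairs in which both passed, the signs were the same in 4 and opposite in 6.

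FGF13, the host of MIR504, had 5.61 in the vector control and 5.79 in the HIF2A array, so the fall of MIR504 was not shared by the host's probe set. CHLSN, the host of MIR339, was lower, with 6.48 and 5.89, a difference of -0.59 against 0.86 for MIR339. DALRD3, the host of MIR425 and MIR191, had 5.90 and 6.34. GNAI3, a G protein subunit gene that contains MIR197, had 6.37 and 5.96, with a difference of -0.41 beside -0.53. MCM7, a replication helicase gene that hosts MIR25, MIR93 and MIR106B, had 8.51 and 8.23. VMP1, an autophagy gene that overlaps MIR21, had 7.59 and 8.06, while MIR21 was within background in both arrays. TRPM1 and TRPM3 were within background in both arrays.

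**Figure D5:**
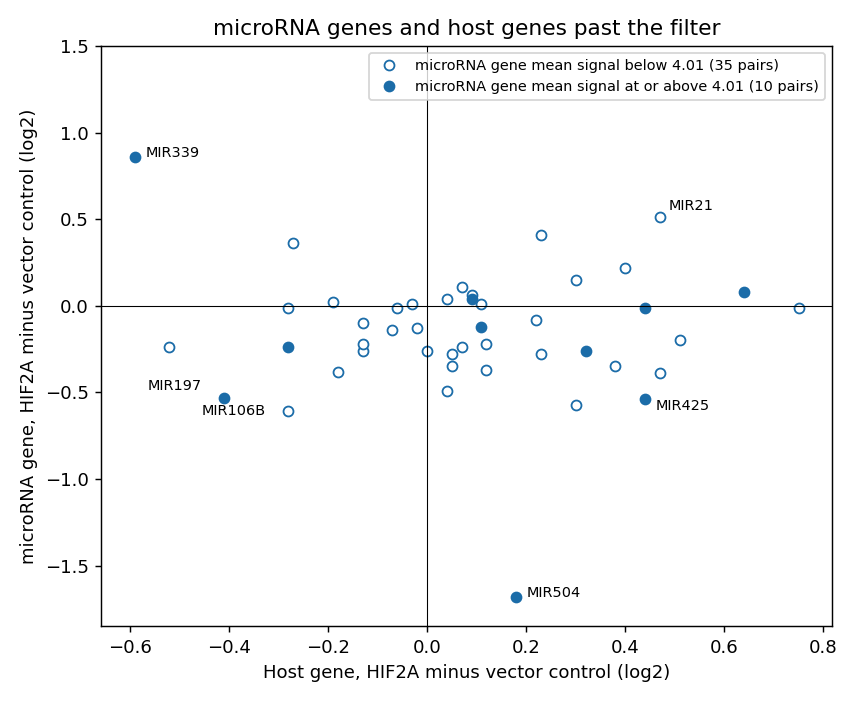
Difference of each microRNA gene against that of its same-strand host gene, both HIF2A minus vector control (log2), for 45 pairs whose host passed the filter, filled where the microRNA gene passed too. Among the filled points MIR504 lies at -1.68 beside a host at 0.18 and MIR339 at 0.86 beside a host at -0.59.

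The protein genes that make microRNAs are given beside all genes past the filter, and counts of so few genes are not read as a result. Of 32 listed symbols of processing, export and loading, 30 matched a measured gene and 28 passed the filter. Of these, 16 were higher and 12 lower, with a median of 0.10, against 0.03 for all genes past the filter. DROSHA had 6.47 in the vector control and 6.57 in the HIF2A array, DGCR8 had 6.61 and 6.82, XPO5 had 7.14 and 7.51 and DICER1 had 6.70 and 6.89. At least 1.5-fold lower were 0 of 28, where 4.50% of all genes past the filter were. At least 1.5-fold higher was 1 gene of 28, where 5.60% of all genes were. That gene is HSPA4, a chaperone gene, at 6.11 and 7.42, and its 20 neighbours had a median of 0.35. LIN28A, whose protein blocks the making of let-7, had 3.90 and 3.45 and LIN28B had 2.72 and 2.54, both below the filter.

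The effector list holds Argonaute and TNRC6 genes of the silencing complex and genes of deadenylation, decapping and accessory factors. All 25 were measured and 23 passed the filter, with 19 higher, 4 lower and a median of 0.26, where 5787 of all 10936 genes past it were higher. At least 1.5-fold higher were 5 of 23, where 5.60% of all genes were, and 0 were lower, where 4.50% were. Of the Argonaute genes, AGO1 had 5.04 in the vector control and 5.47 in the HIF2A array, AGO2 had 6.17 and 5.93 and AGO3 had 4.53 and 5.09. Of the scaffold genes that bind them, TNRC6A had 5.68 and 6.0, TNRC6B had 4.96 and 4.98 and TNRC6C had 4.71 and 4.39. No Argonaute or TNRC6 gene reached 1.5-fold. The 5 are P4HA1, a prolyl hydroxylase gene known both for AGO2 stability and as a HIF target, at 6.44 and 7.60, the deadenylase genes PAN3 at 4.74 and 5.70 and CNOT8 at 5.05 and 5.90, the scaffold gene LIMD1 at 7.51 and 8.31 and the decapping gene DCP2 at 5.09 and 5.70. CNOT8 lies among neighbours with a median of 0.51, DCP2 among neighbours with 0.29, LIMD1 with 0.24, PAN3 with 0.13 and P4HA1 with 0.03. The part of neighbouring genes in these differences was not tested.

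Small nucleolar and Cajal body RNA genes, another group of short noncoding RNA genes on the array, stood further from background. Of 192 such genes 51.0% passed the filter, against 20.8% of microRNA genes. Past it their differences had a robust SD of 0.54, where microRNA genes had 0.25. Of 98 genes 18 were higher and 7 lower by 1.5-fold or more, which is 18.4% and 7.14% beside 5.60% and 4.50% of all genes past the filter. The part of RNA length in this contrast was not tested.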

How the data were processed

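Each probe set has 1 deposited log2 signal an array, made by the authors in Expression Console from Affymetrix, per the submitters' processing notes. Algorithm, background correction, centring and genome build were not given in the sources used here, and the values themselves gave the log base. RNA was extracted with TRIzol and purified on RNeasy, per the labels' protocols. GEO's array annotation names 1 gene for 19310 of 28869 probe sets; those with several symbols (1752) or none (7807) stay out of the gene values. A gene with several probe sets took the one whose mean was highest, and passed when that mean reached 4.01. The mean, not the brighter array, was used, but a high signal on 1 array can still carry a gene past. MIR504, at 3.80 in the HIF2A array, and MIR23A, at 4.0 in the vector control, passed in this way. With 1 array per group no test was run, and genes were counted at 1.5-fold and 2-fold. Their number limits the precision. Clusters, hosts and neighbours come from RefSeq GRCh38.p14 gene order, and 164 of 173 members matched its microRNA sequences. Named by rule were members at least 1.5-fold apart, the 15 with the highest signals, those of the lists past the filter, shared clusters, seeds and hosts; other names were chosen once their values were seen. The members and lists were chosen with earlier results of these data known. The code was tested on simulated data. Tools were matplotlib 3.10.9, statsmodels 0.14.6, scipy 1.17.1, pandas 2.3.3 and numpy 2.4.6, run under Python 3.11.15.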

Additional observations from a re-analysis of the deposited data

How the results depend on the processing

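No paired analysis was possible because each group has 1 array, and for the same reason none could leave out a replicate. Members past the filter numbered 36, 89 with the filter at the 25th percentile, 8 at the 75th and 173 with none. At least 1.5-fold higher were 1, but 3 with the 25th percentile filter, 4 without one, 2 with the filter on the brighter array and 2 with shared probe sets added, an alternative chosen after seeing the data. At least 1.5-fold lower were 2, but 4 with the 25th percentile filter, 4 without one, 0 at the 75th percentile and 4 after subtracting neighbours. At least 2-fold lower were 2, but 0 at the 75th percentile and 0 with 32 added, and at 3-fold 1. A filter changes only which members enter. The median difference of -0.08 ran from -0.13 after subtracting neighbours to -0.03 with 32 added. MIR504, MIRLET7D and MIR339 kept their direction and 1.5-fold in all 12 settings that could be applied to a single gene, ranging from -1.69 to -0.74, from -1.36 to -0.60 and from 0.61 to 0.94. MIR9-3, at 0.79, and MIR21, at 0.51, both came to -0.011 with a floor at the olfactory receptor level, since all their signals lie under it. Of 600 values of 50 named members, 18 besides that of MIR9-3 moved by at least 0.25, that of MIR21 among them; filter and probe set settings repeat a member's value, so these counts do not measure stability. What limits most members is signal over background: 109 of 173 lay within it in both arrays.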

Other observations

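Long transcripts that host microRNAs, left out of the members by their names, had probe sets of their own for 16 genes, of which 7 passed the filter. MIR17HG, the primary transcript of the miR-17/92 cluster and a MYC target, had 5.52 in the vector control and 6.22 in the HIF2A array, 1.63-fold higher, among neighbours with a median of 0.03. MIRLET7BHG had 4.83 and 4.16, 1.59-fold lower, among neighbours with a median of 0.18. MIR503HG had 5.59 and 5.52.

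Of 32 probe sets that a microRNA shares with another symbol, 4 had a mean signal of at least 4.01. The probe set of MIR155 and MIR155HG, a locus known from activated B cells and from hypoxia, had 3.69 in the vector control and 4.58 in the HIF2A array, 1.85-fold higher. The probe set of MIRLET7B and MIRLET7BHG had 4.34 and 3.60, a difference of -0.74, with a mean below the filter, while that of MIRLET7A3 and MIRLET7BHG had 3.76 and 3.82. These values have no replicate and were picked after they were seen.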
